A study of Mus musculus with 6 samples.

Results

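Retinal pigment epithelium nuclei were sought by a gate on marker genes in single-nucleus RNA-seq of mouse retina. A nucleus was taken when at least 3 of 9 genes of this epithelium (Rpe65, Best1, Rdh5, Lrat, Tyrp1, Mitf, Ttr, Slc26a7 and Otx2) had a UMI, with Rpe65 or Best1 among them. At most 1 UMI was allowed over 7 genes of Müller glia and retinal neurons (Slc1a3, Gad1, Gad2, Slc6a9, Slc17a6, Trpm1 and Arr3). A UMI, or unique molecular identifier, stands for 1 captured RNA molecule. The gate found 78 of 55230 nuclei. The nuclei were thus chosen by the counts of these 16 genes, which are given below as description.

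There were 3 libraries of mice aged 18 months and 3 of mice aged 3 months, all wild-type C57BL/6J, and RNA of isolated nuclei was read from its 3' end. The series asks how vision declines with age and what polyunsaturated fatty acids do to it, but no supplemented animal was among these libraries. The labels name the tissue as retina, do not say whether the epithelium was left on it, and do not say whether the libraries of an age came from separate or pooled animals. Each p-value is thus set by how much libraries differ, and that spread may be technical.

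The retinal pigment epithelium is a single pigmented sheet between the photoreceptors and the choroid, resting on Bruch's membrane. It regenerates the 11-cis-retinal chromophore of the visual pigments, takes up shed photoreceptor outer segments, carries nutrients, ions and water between blood and retina, and secretes matrix and growth factors. Because photoreceptor outer segments are rich in docosahexaenoic acid, the same cells also handle much of the retina's fatty acid traffic.

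The label held for part of the gated nuclei and not for all of them. Of the 78, 42 had 4 or more gate genes and carried other genes of the pigment epithelium at high levels, while the 36 with exactly 3 gate genes carried them at low levels and had neuronal RNA near that of other nuclei. Of the 36, 21 came from 18-month replicate 3. Best1 and Tyrp1, which the label's markers include, were near or at 0. The results below are therefore given for the 78 gated nuclei and, where they moved, also for the 42, a subset chosen after the data had been seen.

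At 18 months, replicate 1 held 16 gated nuclei of 5891, or 0.272% (exact 95% interval 0.155 to 0.441). Replicate 2 held 3 of 16177, or 0.0185% (0.00382 to 0.0542), and replicate 3 held 27 of 14462, or 0.187% (0.123 to 0.272). The 3-month libraries held 0 of 5247 nuclei in replicate 1, which allows a share of up to 0.0572% by a floor of 3 counts and 0.0703% by the exact interval, 10 of 6533 in replicate 2, or 0.153% (0.0734 to 0.281), and 22 of 6920 in replicate 3, or 0.318% (0.199 to 0.481). The low libraries were 18-month replicate 2 and 3-month replicate 1, and the ages overlapped. The intervals cover counting error only. No single library held most of the gated nuclei, since the largest number was 27 of 78. Libraries held 15905689 to 29340705 UMIs in all, and 1.12% to 41.9% of their barcodes were removed for under 300 genes or over 5% mitochondrial UMIs. Pairs of libraries shared 8 to 71 nuclear barcodes, and no gated nucleus had a barcode present in another library.

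**Figure D1:**
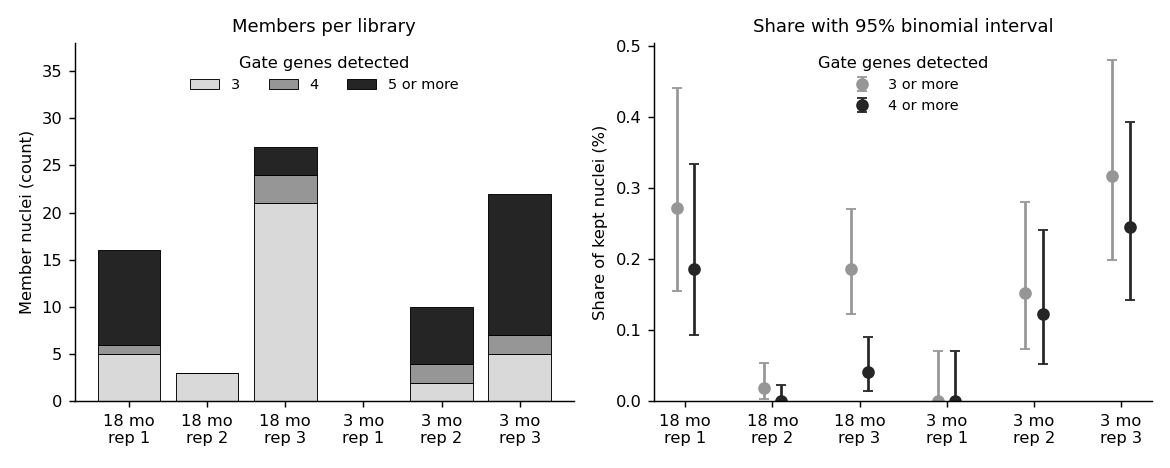
Number of gated nuclei in each library, stacked by how many of the 9 gate genes had a UMI, with 18-month libraries left of 3-month ones. The 3-gene class makes up 21 of 27 nuclei in 18-month replicate 3 and 5 of 22 in 3-month replicate 3.

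The gated nuclei had a median of 1696.5 UMIs, against 1313 in all other nuclei, 1121 in rods and 5013.5 in GABAergic nuclei. Sums over the gated nuclei of a library came to 46350 and 41641 UMIs in 18-month replicates 1 and 3 and 21000 and 43197 UMIs in 3-month replicates 2 and 3. These 4 libraries, each with 10 or more gated nuclei, entered the tests on genes. The 42 nuclei with 4 or more gate genes were fitted in the same 4 libraries. There they numbered 11 and 6 at 18 months and 8 and 17 at 3 months, so the floor of 10 was lowered for that subset. Values per library are given as CPM, the UMIs of a gene scaled to the same total in every sum over nuclei, in the order 18-month replicates 1 and 3, then 3-month replicates 2 and 3. CPM is not scaled by gene length, so that levels are compared for the same gene and not between genes. The 3 nuclei of 18-month replicate 2 were not tested.

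Rpe65 encodes the isomerase that makes 11-cis-retinol and lies at chr3:159599175-159625321 on the plus strand (mm10, GENCODE M21). It had 6429 and 1105 CPM in the gated nuclei at 18 months and 5857 and 5162 CPM at 3 months, against 4.62 to 16.4 CPM in the other nuclei of these libraries. The level in 18-month replicate 3 was the low one. In the 42 nuclei with 4 or more gate genes it was 8677 and 1996 CPM at 18 months and 7455 and 6743 CPM at 3 months. A UMI of Rpe65 was present in 94.9% of gated nuclei, 1.91% of GABAergic nuclei and 0.724% of rods, which lack the protein in textbook descriptions. No UMI of it was seen in 303 Müller glia nuclei. After each nucleus was thinned to 500 UMIs, which left out none, these shares were 67.9% in gated nuclei, 0.201% in GABAergic nuclei and 0.334% in rods.

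Among the other retinoid genes of the gate, Rdh5, the dehydrogenase that oxidises 11-cis-retinol, had 1057 and 312 CPM at 18 months and 810 and 1088 CPM at 3 months. Lrat, which esterifies retinol, had 518 and 144 CPM at 18 months and 429 and 463 CPM at 3 months. Both were again lowest in 18-month replicate 3. Ttr, the thyroxine and retinol carrier transthyretin, had 1014 and 696 CPM at 18 months and 1905 and 5486 CPM at 3 months, and its level in other nuclei, 9.85 to 78.1 CPM, was spread widely as well. Mitf, the pigment cell transcription factor, had 561 and 312 CPM at 18 months and 429 and 602 CPM at 3 months. Other nuclei had 56.5 to 84.2 CPM of Mitf. A UMI of Mitf was in 57.7% of gated and 35.7% of the deeper GABAergic nuclei, and after thinning to 500 UMIs in 19.2% of gated and 2.81% of GABAergic nuclei. For Otx2, the homeobox factor of photoreceptors, bipolar cells and pigment epithelium, a UMI was in 39 of 78 gated nuclei and 36.3% of GABAergic nuclei, and after thinning in 16.7% of gated and 4.82% of GABAergic nuclei.

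Best1 encodes the chloride channel bestrophin and lies at chr19:9985174-10001633 on the minus strand. It had 4 UMIs in all, each in a nucleus with 3 gate genes, and none in the 42 nuclei with more, which allows a UMI in up to 7.14% of these and does not limit how many express it. Tyrp1, a melanosomal enzyme at chr4:80834123-80851719 on the plus strand, had no UMI in any of the 78 nuclei, which allows a UMI in up to 3.85% of nuclei, or 19.0 CPM in their sum. Among the 42 nuclei, Rpe65 had a UMI in 42, Rdh5 in 40, Ttr in 38, Mitf in 31, Lrat in 27, Slc26a7, an anion transporter, in 26 and Otx2 in 26. Rpe65 was thus in practice the entry gene, and Best1 added nuclei only among those with 3 gate genes.

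The promoters of Rpe65 and Best1 are shown because these genes decide entry to the gate and differ in these nuclei. That of Rbm46os is shown because it ranked highest by the rule for named genes among those with an entry. It lies beside the promoter of the gate gene Lrat. Each promoter is the 250 bases before the RefSeq start (GRCm38.p6), written 5' to 3' on the gene's strand: Rpe65 at chr3:159598931-159599180 (plus), Best1 at chr19:10001634-10001883 (minus) and Rbm46os at chr3:82904227-82904476 (plus). Capitals mark CATGTG, the core of the MITF M-box, or TAATCC, which OTX2 binds, read on either strand.
Rpe65: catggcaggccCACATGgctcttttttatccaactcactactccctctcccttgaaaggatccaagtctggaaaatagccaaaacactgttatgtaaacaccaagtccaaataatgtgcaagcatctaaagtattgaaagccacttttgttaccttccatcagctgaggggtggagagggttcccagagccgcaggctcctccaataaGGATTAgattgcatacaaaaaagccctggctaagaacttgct
Best1: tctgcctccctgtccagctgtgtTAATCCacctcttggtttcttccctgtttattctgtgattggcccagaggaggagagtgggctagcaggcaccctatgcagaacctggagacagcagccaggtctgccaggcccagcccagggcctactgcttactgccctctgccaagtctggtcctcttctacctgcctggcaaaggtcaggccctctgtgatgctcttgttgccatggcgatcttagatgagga
Rbm46os: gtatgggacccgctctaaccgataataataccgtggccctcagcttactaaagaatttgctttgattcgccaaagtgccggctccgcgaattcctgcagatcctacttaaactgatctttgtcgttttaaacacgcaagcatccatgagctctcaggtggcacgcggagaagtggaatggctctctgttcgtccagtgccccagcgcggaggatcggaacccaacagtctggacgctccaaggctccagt
Rpe65 held both motifs, each on the other strand (printed as CACATG and GGATTA), Best1 held TAATCC alone and Rbm46os held neither. CATGTG was in 3 of 12 promoters listed for the 7 gate genes with an entry (25%) and in 12.3% of all 32851 promoters of that table. The 3 with CATGTG include that of Tyrp1, which is not shown. Its 250 bases reach into the GENCODE gene model. So do the last bases of the Rpe65 window shown, and the Rbm46os window lies wholly inside its GENCODE model. TAATCC was in 4 of 12 (33.3%) and in 6.25% of all. Among promoters of the genes most raised in the gated nuclei, 3 of 26 (11.5%) held CATGTG, those of Tyr, Oca2 and Slc16a9, and 2 of 26 (7.69%) held TAATCC, those of Rgr and Rbm47. The motifs share no overlap in these windows, and a match is a string of letters, not a bound site.

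How many gate genes a nucleus had went with how much RNA of other pigment epithelium genes it held. A set of 10 such genes outside the gate (Rgr, Rlbp1, Kcnj13, Stra6, Tyr, Dct, Slc16a8, Mfrp, Rrh and Krt18) summed to 7912 CPM in the 34 nuclei with 5 or more gate genes, 8028 CPM in the 8 with 4, and 1170 CPM in the 36 with 3. In the 95 nuclei just outside the gate, with 2 gate genes, it was 372 CPM. The 4-gene and 5-gene nuclei were thus alike in this sum, and the 3-gene nuclei stood nearer to those outside. At least 2 of the 10 genes had a UMI in 34 of 34 nuclei with 5 or more gate genes, 7 of 8 with 4, 11 of 36 with 3 and 9 of 95 with 2. Of the 10, Rlbp1 and Rrh had a UMI about as often in Müller glia nuclei as in gated ones. The median Rpe65 count was 13.5 UMIs with 5 or more gate genes, 6.5 with 4, 1 with 3 and 1 with 2, and the highest was 58.

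Neuronal RNA went the other way in sums over all libraries. Markers shared by retinal neurons (Snap25, Syt1, Nrxn3, Meg3, Celf4, Elavl4 and others) summed to 3343 CPM with 5 or more gate genes, 2646 CPM with 4, 12423 CPM with 3 and 14660 CPM with 2. In other nuclei this sum was 12158 to 16012 CPM over the 4 libraries tested. The fall was smaller in 18-month replicate 3, with 15818 CPM in nuclei with 3 gate genes and 10335 CPM in the 6 with 4 or more. Nuclei with 4 or more gate genes had 3310 CPM in 18-month replicate 1, and 4599 and 718 CPM in 3-month replicates 2 and 3. Rod markers stood at 14417 CPM with 5 or more gate genes, 15508 CPM with 4, 20975 CPM with 3 and 17009 CPM with 2.

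**Figure D2:**
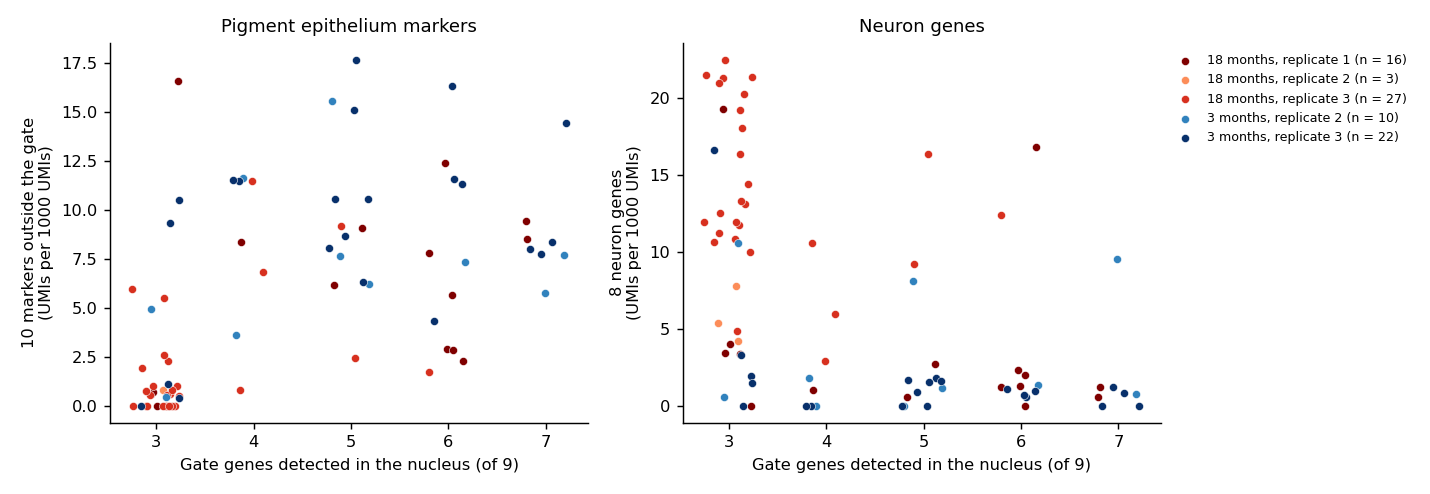
UMIs of the 10 pigment epithelium genes outside the gate (left) and of 8 neuron genes (right) per 1000 UMIs of a nucleus, against the number of gate genes with a UMI, a point per gated nucleus, coloured by library and spread sideways for visibility. The 36 nuclei with 3 gate genes are mostly low on the left and mostly high on the right, and many of them are from 18-month replicate 3.

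Markers of other cell types were counted in the gated nuclei before reading their expression. Rod markers summed to 9364 and 12440 CPM at 18 months and 23000 and 25048 CPM at 3 months, against 8892 and 15151 CPM, and 33854 and 24052 CPM, in the other nuclei of the same libraries. In both, the 18-month libraries thus stood below the 3-month ones, and none of the 15 rod markers passed the test against other nuclei described below. In the 42 nuclei with 4 or more gate genes, 7 of the 15 were lower, as were 1133 of all 14767 genes tested. The median log2 difference of the rod markers was -1.33 there, near the -1.26 of all genes. Neuron markers summed to 5739 and 14697 CPM at 18 months and 5619 and 2847 CPM at 3 months, with 18-month replicate 3 high. Müller glia markers summed to 143 to 552 CPM in the gated nuclei. Markers of ciliary and iris epithelium summed to 238 to 792 CPM there, against 569 to 675 CPM in other nuclei.

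Fibroblast markers summed to 0, 24, 0 and 0 CPM, and Col1a1, Col1a2, Col3a1, Lum and Pdgfra were at 0. Pericyte and smooth muscle markers reached at most 93 CPM and endothelial markers at most 168 CPM, with Rgs5, Myh11, Cdh5, Plvap and Emcn at 0. Microglia and macrophage markers summed to 96 to 238 CPM, with C1qa, C1qb and Aif1 at 0. Within that list Csf1r, the receptor of colony-stimulating factor 1, was the exception, with 64.7 and 0 CPM at 18 months and 238 and 139 CPM at 3 months, against 1.14 to 6.66 CPM in other nuclei, a log2 difference of 4.27 (adjusted p = 2.0e-07, edgeR). Csf1r had a UMI in 10 of the 42 nuclei with 4 or more gate genes, where P2ry12 and Cx3cr1 had a UMI in 1 each.

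Sox10, a transcription factor of neural crest derivatives that marks choroidal melanocytes, had 86.3 and 0 CPM in gated nuclei at 18 months and 238 and 278 CPM at 3 months, against at most 0.695 CPM in other nuclei. It lies at chr15:79154908-79165240 on the minus strand. It was in 14 of the 42 nuclei with 4 or more gate genes, in 1 of the 36 with 3 and in 0 of the 95 with 2, and it fell under the count filter of the test against other nuclei. In the age test its log2 difference was -2.57 (SE 1.15, adjusted p = 0.50, edgeR). The melanocyte list, Sox10 included, summed to 108 and 48 CPM at 18 months and 286 and 301 CPM at 3 months. Mlana and Kit, other melanocyte markers, had a UMI in 1 of the 42 nuclei each, and Gjc3 and Fabp7 were at 0. Of the 14 nuclei with Sox10, 1 had another melanocyte marker, as had 3 of the other 28. The part of melanocyte or glial RNA in the Sox10 counts was not tested.

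**Figure D3:**
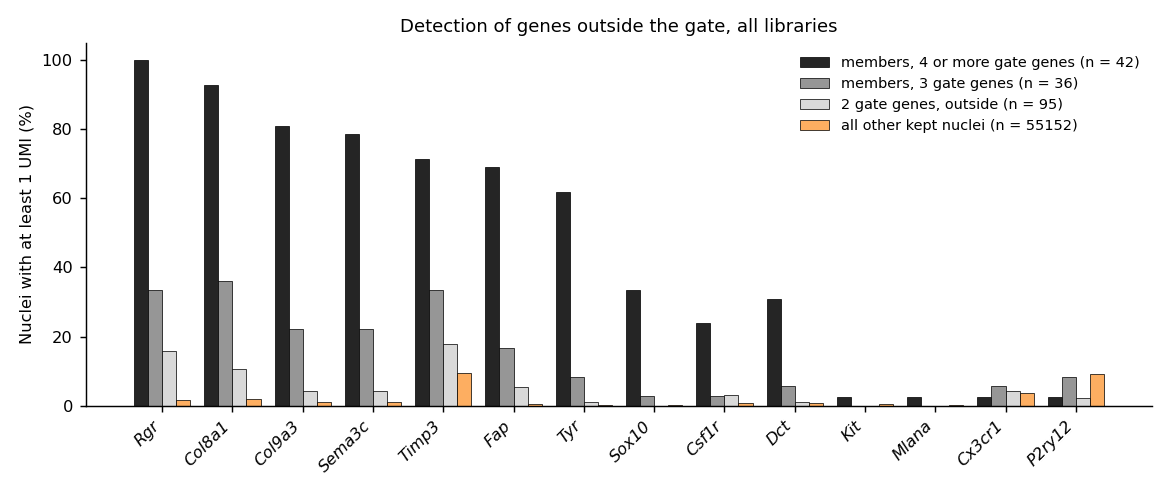
Percent of nuclei with at least 1 UMI of each named gene in nuclei with 4 or more gate genes, with exactly 3, with 2 (outside the gate) and in all other nuclei. Rgr is in 42 of 42 and 12 of 36 nuclei of the gated classes and in 15 of the 95 with 2 gate genes. It is in 1.67% of all other nuclei, which include these 95.

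Set against all other nuclei of the same library, the gated nuclei were higher in many genes outside the gate that belong to retinoid recycling, pigment, transport and Bruch's membrane, and lower in 7 of 8 neuron markers. By edgeR's quasi-likelihood test with library as a block and Benjamini-Hochberg adjustment, 303 of 14843 genes (2.04%) were higher and 566 (3.81%) lower at an adjusted p of 0.05. The median log2 difference of all genes was -0.79, so that changes are read relative to it. That balance depends on scaling. With DESeq2 the median was -0.12 and the calls 381 higher and 59 lower, and with RLE factors in edgeR -0.32 with 383 higher and 178 lower. Of the genes named by rule or listed, DESeq2 also called 59 of the 59 higher ones and 4 of the 28 lower ones.

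Of 9 tested visual cycle genes outside the gate 6 were higher and none lower, with a median log2 difference of 3.34. Rgr, an opsin of pigment epithelium and Müller glia that photoisomerises retinal, at chr14:37034909-37048964 on the minus strand, had 3172 and 1009 CPM at 18 months and 3476 and 4607 CPM at 3 months. Other nuclei had 8.54 to 22.5 CPM, and the log2 difference was 7.14 (SE 0.57, adjusted p = 1.6e-33, edgeR), higher in 4 of 4 libraries. After thinning to 500 UMIs, 52.6% of gated nuclei and 0.1% of GABAergic nuclei had an Rgr UMI.

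Rlbp1, the 11-cis-retinal carrier that Müller glia share, had 518 and 240 CPM at 18 months and 381 and 1111 CPM at 3 months, against 51.2 to 150 CPM in other nuclei, a log2 difference of 2.33 (SE 0.41, adjusted p = 1.4e-06, edgeR). Rdh10, a retinol dehydrogenase, differed by 3.46 on the log2 scale. Rrh, the visual pigment-like opsin peropsin, differed by 3.34 and Stra6, the receptor that takes up retinol from its plasma carrier, by 5.03. Both calls rested on few counts, since without 3-month replicate 3 the adjusted p of edgeR was 0.227 for Rrh and 0.203 for Stra6. Abca4, the outer segment retinoid transporter, had a log2 difference of -0.11 and was not called, and Rbp4, the plasma carrier itself, had no UMI.

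**Figure D4:**
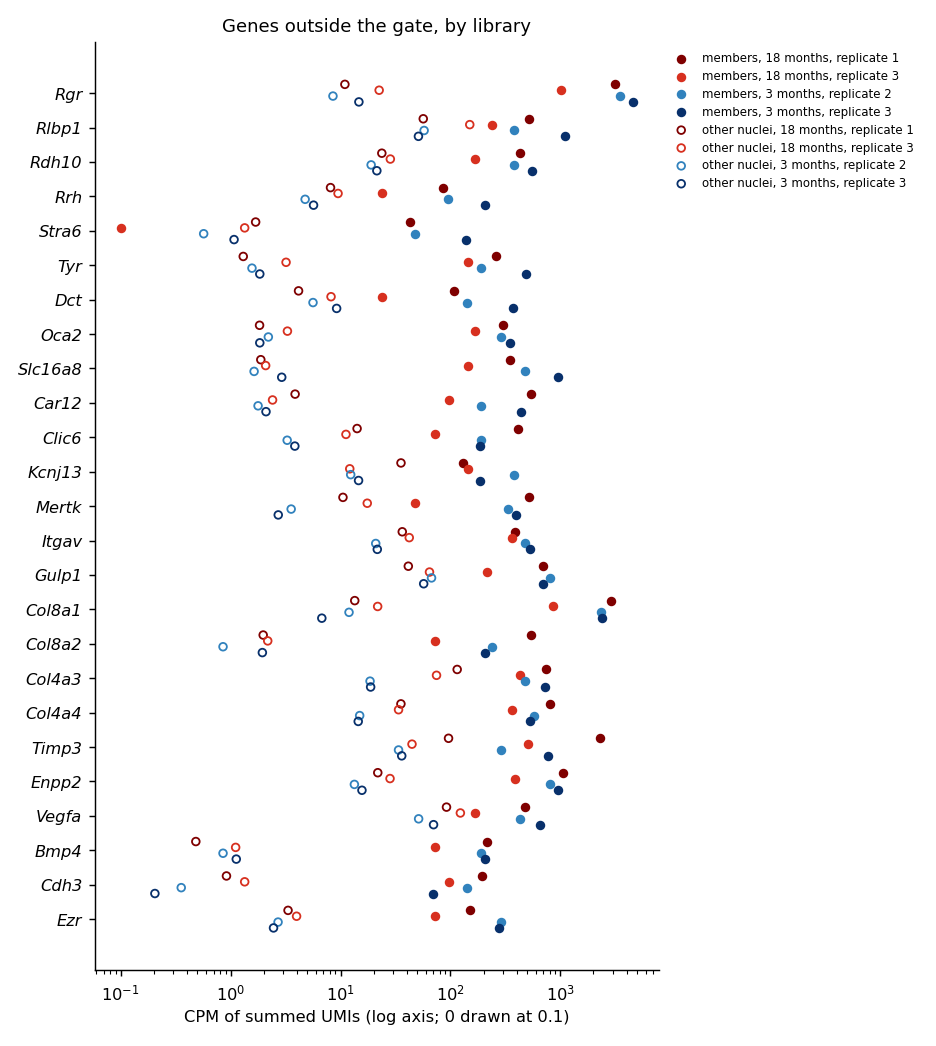
CPM on a log axis of named pigment epithelium genes in the summed gated nuclei and in all other nuclei, a filled point (members) and an open point (other nuclei) per library, red for 18 months and blue for 3 months. Rgr lies between 1009 and 4607 CPM in gated nuclei and between 8.54 and 22.5 CPM in the others, and 18-month replicate 3 is the lowest gated library for all genes drawn except Kcnj13, Timp3 and Cdh3.

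Of 8 tested genes of melanin and the melanosome 5 were higher and none lower, with a median of 2.99. Tyr, the tyrosinase that starts melanin synthesis, had 259 and 144 CPM at 18 months and 190 and 486 CPM at 3 months, against at most 3.20 CPM in other nuclei, a log2 difference of 6.57 (SE 0.52, adjusted p = 4.5e-34, edgeR). Oca2, the melanosomal transporter behind oculocutaneous albinism, differed by 6.37, Dct, the dopachrome tautomerase, by 3.91 and Rab27a, which moves melanosomes, by 2.71. Myo7a, a melanosome and opsin motor, was called in the 4 libraries together but not without 18-month replicate 1 (adjusted p = 0.391, edgeR) or 3-month replicate 3 (0.215). Pmel and Slc45a2 had no UMI, as Tyrp1 had none.

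Transport genes were raised in 9 of 17 tested cases and lower in 1, Kcnq5, with a median of 2.01. Slc16a8, the lactate carrier of the basolateral membrane, had 345 and 144 CPM at 18 months and 476 and 949 CPM at 3 months, against 1.64 to 2.92 CPM in other nuclei, a log2 difference of 7.07 (SE 0.45, adjusted p = 2.5e-52, edgeR). Car12 and Car14, membrane carbonic anhydrases, differed by 6.37 and 3.38, and Slc6a20a, a proline carrier, by 5.91. Kcnj13, the apical potassium channel Kir7.1, differed by 2.90, with 129 and 144 CPM at 18 months and 381 and 185 CPM at 3 months. Slc2a1, the glucose carrier of the blood-retina barrier, differed by 2.01. Aqp1, a water channel, had 0 CPM in the 4 libraries, against 19.5 to 35.9 CPM in other nuclei. The call of Kcnq5, a potassium channel, was lost without 18-month replicate 1 (adjusted p = 0.171, edgeR) or 3-month replicate 2 (0.0800), with RLE factors (0.0703), with DESeq2 (0.251) and in the 42 nuclei (0.0626). Slc4a2, an anion exchanger, was not called without 18-month replicate 1 (adjusted p = 0.394, edgeR).

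Bruch's membrane and secreted factors were raised in 11 of 19 tested genes and lowered in none, with a median of 2.40. Col8a1, a short-chain collagen of basement membranes, at chr16:57624258-57754737 on the minus strand, had 2913 and 865 CPM at 18 months and 2333 and 2384 CPM at 3 months, against 6.76 to 21.8 CPM in other nuclei. Its log2 difference was 6.75 (SE 0.53, adjusted p = 2.0e-34, edgeR), and Col8a2, its partner chain, differed by 6.61. Col4a3 and Col4a4, chains of basement membrane collagen IV, differed by 3.16 and 4.02.

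Timp3, the metalloproteinase inhibitor mutated in Sorsby fundus dystrophy, had 2309 and 504 CPM at 18 months and 286 and 764 CPM at 3 months, against 33.7 to 96.1 CPM in other nuclei. It differed by 3.44 (SE 0.43, adjusted p = 3.3e-13, edgeR), with 18-month replicate 1 far above the other libraries. Enpp2, the enzyme autotaxin, differed by 4.77, Bmp4, a bone morphogenetic growth factor, by 7.01, and Vegfa, the vascular growth factor, by 1.79. Vegfa was not called without 3-month replicate 3 (adjusted p = 0.0954, edgeR), nor Col18a1, the endostatin precursor, without 18-month replicate 1 (0.463). Col4a5 was lost without 18-month replicate 1 (0.283), 3-month replicate 2 (0.153) or 3-month replicate 3 (0.578). Serpinf1, C3, Cfi and Fbln5 had no UMI.

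In the phagocytosis and lysosome list 3 of 17 tested genes were higher and 1 lower, with a median of -0.60 beside -0.79 for all genes. Mertk, the receptor kinase that drives engulfment of outer segments, had 518 and 48.0 CPM at 18 months and 333 and 394 CPM at 3 months, against 2.71 to 17.5 CPM in other nuclei. It differed by 4.95 (SE 0.46, adjusted p = 1.2e-24, edgeR). Mertk was in 27 of 42 nuclei with 4 or more gate genes and in 1 of 36 with 3. Itgav, the alpha chain of the integrin that binds outer segments, differed by 3.32 and Gulp1, an engulfment adaptor, by 2.75. The lower gene was Ctsb, a lysosomal protease, whose call was lost without any of the 4 libraries (adjusted p = 0.0629 to 0.318, edgeR), with RLE factors (0.361) and with DESeq2 (0.563). Of the others, the ligand Pros1 and the scavenger receptor Cd36 had no UMI.

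Among junction and polarity genes 4 of 10 tested were higher and Magi1 was lower, with a median of -0.00. The call of Magi1, a scaffold protein, was lost without 18-month replicate 1 (adjusted p = 0.0689, edgeR), 3-month replicate 2 (0.0595) or 3-month replicate 3 (0.186), with RLE factors (0.0700) and with DESeq2 (0.195). Ezr, the apical membrane linker ezrin, differed by 5.33 with 151 and 72.0 CPM at 18 months and 286 and 278 CPM at 3 months, against 2.46 to 3.98 CPM. Cdh3, P-cadherin, differed by 6.96. Krt18, a simple epithelial keratin, was lost without 3-month replicate 3 (adjusted p = 0.0508, edgeR), and Ocln, a tight junction protein, when any of the 4 libraries was left out or the 42 nuclei were used. Of 7 tested transcription factors outside the gate, Sox9 was higher, by 2.87, and not called without 18-month replicate 1 (adjusted p = 0.250, edgeR). Pax6, the eye master regulator kept by amacrine and ganglion cells, was lower by -2.31 (adjusted p = 5.4e-04, edgeR), a call DESeq2 did not make (adjusted p = 0.079).

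The lipid list bears on the fatty acid question of the series. Of 29 tested genes of lipid uptake, docosahexaenoic acid handling and beta-oxidation, 2 were higher and 1 lower, with a median of -0.14. Abca1, the cholesterol exporter, was lost without 18-month replicate 1 (adjusted p = 0.563, edgeR) or 3-month replicate 3 (0.168). The lower gene was Acadm, a beta-oxidation dehydrogenase, and its call was lost when any of the 4 libraries was left out (adjusted p = 0.0765 to 0.371, edgeR), with RLE factors (0.248), with DESeq2 (0.481) and in the 42 nuclei (0.0709).

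Elovl5, an elongase of polyunsaturated fatty acids, had 173 and 120 CPM at 18 months and 47.6 and 69.5 CPM at 3 months, against 18.6 to 32.4 CPM. Its log2 difference was 1.57 (SE 0.55, adjusted p = 0.0639, edgeR), and in the 42 nuclei it was 2.09 (adjusted p = 0.00374, edgeR). Elovl4, which extends fatty acids to very long chains in photoreceptors, had -0.39 and Adipor1, a receptor needed for docosahexaenoic acid uptake, -0.04, and neither was called. Mfsd2a, the transporter of lysophospholipid-bound docosahexaenoic acid, had no UMI in the gated nuclei. Among 18 tested antioxidant and metallothionein genes, Mt1, Mt2 and Nqo1 were higher and none lower, with a median of 0.14. Mt1, a metal-binding protein, had 367 and 144 CPM at 18 months and 238 and 903 CPM at 3 months, against 18.1 to 76.4 CPM. Mt2 was lost without 18-month replicate 1 (adjusted p = 0.722, edgeR) and Nqo1 without 3-month replicate 2 (0.505) or 3-month replicate 3 (0.446). Of 8 tested genes of cell cycle arrest and senescence none was higher and Lmnb1, a nuclear lamin, was lower. The call of Lmnb1 was lost without any of the 4 libraries (adjusted p = 0.150 to 0.275, edgeR), with RLE factors (0.188), with DESeq2 (0.354) and in the 42 nuclei (0.120).

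By the rule for named genes, the largest difference was that of Fap, a membrane serine protease, at chr2:62500943-62574075 on the minus strand. It had 626 and 192 CPM at 18 months and 905 and 833 CPM at 3 months, against 1.13 to 4.77 CPM, a log2 difference of 7.44 (SE 0.44, adjusted p = 3.7e-61, edgeR). Rbm46os followed at 7.35, with 259, 24.0, 95.2 and 92.6 CPM. Its GENCODE model, chr3:82876705-82943638 on the plus strand, spans the gate gene Lrat (chr3:82892579-82903973) on the minus strand, so its reads and those of Lrat may not be told apart. Tc2n, a C2 domain protein, differed by 7.34, Ermn by 7.02, Rbm47, an RNA-binding protein of epithelia, by 6.84 and Met, the receptor of hepatocyte growth factor, by 6.33.

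Cell surface and matrix genes were also among the largest. Col9a3, a collagen IX chain, had 928 and 384 CPM at 18 months and 667 and 787 CPM at 3 months, and differed by 6.58. Sema3c, a secreted semaphorin, had 712 and 528 CPM at 18 months and 714 and 694 CPM at 3 months and differed by 6.47. Ankfn1 had 1661 and 552 CPM at 18 months and 1190 and 1250 CPM at 3 months and differed by 6.01. Itgb8, an integrin that activates transforming growth factor beta, differed by 6.10, Slco1a4, an organic anion carrier, by 5.90, Slc16a9, a carnitine carrier, by 5.98 and Flvcr2, a choline carrier, by 5.69. All 25 of the largest higher genes were still called when any of the 4 libraries was left out.

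Of 8 neuron markers 7 were lower, with a median of -1.83 in the 78 nuclei and -2.98 in the 42, a direction that the excluded neuronal genes of the gate partly fix. Sema3a, a secreted guidance cue, had no UMI in the 78 nuclei, which allows up to 19.0 CPM, against 63.9 to 80.4 CPM in other nuclei. Thsd7b had 0 and 72.0 CPM at 18 months and 0 and 23.1 CPM at 3 months, against 198 to 367 CPM, a log2 difference of -3.93 (SE 0.64, adjusted p = 9.6e-08, edgeR). Sema5a, another semaphorin, differed by -4.20. Of the 28 lower genes named or listed, 4 were called when any of the 4 libraries was left out: Sema3a, Sema5a, Thsd7b and Pax6. Of the 59 higher ones it was 46.

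In the 42 nuclei with 4 or more gate genes 353 genes were higher and 1133 lower, with a median of -1.26. The visual cycle list kept 6 of 9 higher genes with a median of 3.53, melanin had 6 of 8 with Rab38, a melanosome GTPase, added, and Bruch's membrane and secreted factors 12 of 19 with Pdgfc, a growth factor, added (2.65). In the lipid list 4 of 29 were higher, Elovl5, Elovl7 and Abca1 among them. Of the 59 higher genes above, 57 were called in this subset too.

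Müller glia are other non-neuronal cells described as carrying Rlbp1 and Rgr. They were set beside the gated nuclei in the same 4 libraries, with 54, 13, 17 and 24 nuclei. Here 644 genes had enough counts, of which 54 (8.39%) were higher in the gated nuclei and 56 (8.7%) lower, with a median of 0.08. Rgr differed by 7.94 (SE 0.57, adjusted p = 7.3e-05, edgeR) and Col8a1 by 6.15 (SE 0.64, adjusted p = 2.9e-04, edgeR). Of the 22 genes of the Bruch's membrane and secreted list 5 were tested. All 5 were higher, Col8a1, Col4a4, Col4a3, Timp3 and Enpp2, with log2 differences of 6.15, 5.28, 4.12, 3.22 and 2.04. The count filter lets in a gene that is high in the gated nuclei alone, so that count is partly fixed by the filter. Itgav differed by 2.38, Sema3c by 8.25 and Ankfn1 by 9.26. Abca8a, a lipid transporter of glia, was lower by -6.42, and so were Cp, the ferroxidase ceruloplasmin, by -3.57, Cdh2, N-cadherin, by -1.94 and Acsl3, an acyl-CoA synthetase, by -2.62. Rlbp1, which helped choose the Müller nuclei, had a UMI in 51.3% of gated and 54.1% of Müller nuclei. Without a library in turn the higher calls against Müller glia numbered 20 to 124 and the lower 15 to 91.

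The share of gated nuclei did not separate the ages. It averaged 0.159% ± 0.129 at 18 months and 0.157% ± 0.159 at 3 months (SD, n = 3 each), a difference of 0.00195 percentage points (two-sided exact permutation test, p = 1, where 3 against 3 libraries cannot give less than 0.1). The direction depended on the gate, since with 4 or more gate genes the shares were 0.0761% ± 0.0980 at 18 months and 0.123% ± 0.123 at 3 months, a difference of -0.0466 points (exact permutation p = 0.7, n = 3 each). Replicate 1 of both ages was counted with Cell Ranger 7.1.0 and the others with 7.2.0. The difference was 0.272 points within 7.1.0, 1 library against 1, and -0.133 points within 7.2.0.

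No gene passed the test between the ages in the gated nuclei, at a depth of 21000 to 46350 UMIs a library. By edgeR's quasi-likelihood test 0 of 835 genes (0.0%) passed at an adjusted p of 0.05 with 2 libraries an age, and outside the gate 79 of 828 had an unadjusted p under 0.05. DESeq2 called 0, with 28 at an unadjusted p under 0.05. A count of 0 here does not show that levels were alike. In 22.3% of the 828 genes both 18-month libraries were above both 3-month ones, and in 21.4% both were below. The age difference set against that of all other nuclei, an interaction term, was called for 0 of 16269 genes (0.0%), with 252 of the 16253 outside the gate at an unadjusted p under 0.05. The count did depend on single libraries: 58 genes were called without 18-month replicate 1 and 18 without 18-month replicate 3, where the lone 18-month library is assumed to vary like the 3-month ones.

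Pigment epithelium lists leaned to lower values at 18 months in the 78 nuclei. The tested genes outside the gate were below 0 in 5 of 5 of the visual cycle (median log2 difference -0.76), 3 of 3 of melanin (-0.61) and 7 of 7 of transport (-0.59), beside a median of 0.00 over all genes. Neuron markers were above 0 in 5 of 5 (0.88), and they were high in 18-month replicate 3, which also held most 3-gene nuclei. Bruch's membrane and secreted factors had a median of -0.28, with 2 of 8 above 0. In the 42 nuclei the visual cycle median was -0.45 with 0 of 5 above 0, that of transport -0.32 with 1 of 5 above 0 and that of neuron markers 0.82 with 4 of 4 above 0, beside -0.07 over all genes. That of Bruch's membrane and secreted factors was 0.07 there, with 5 of 7 above 0. None of these genes passed the test, and the part of neuronal RNA in these medians was not tested.

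**Figure D5:**
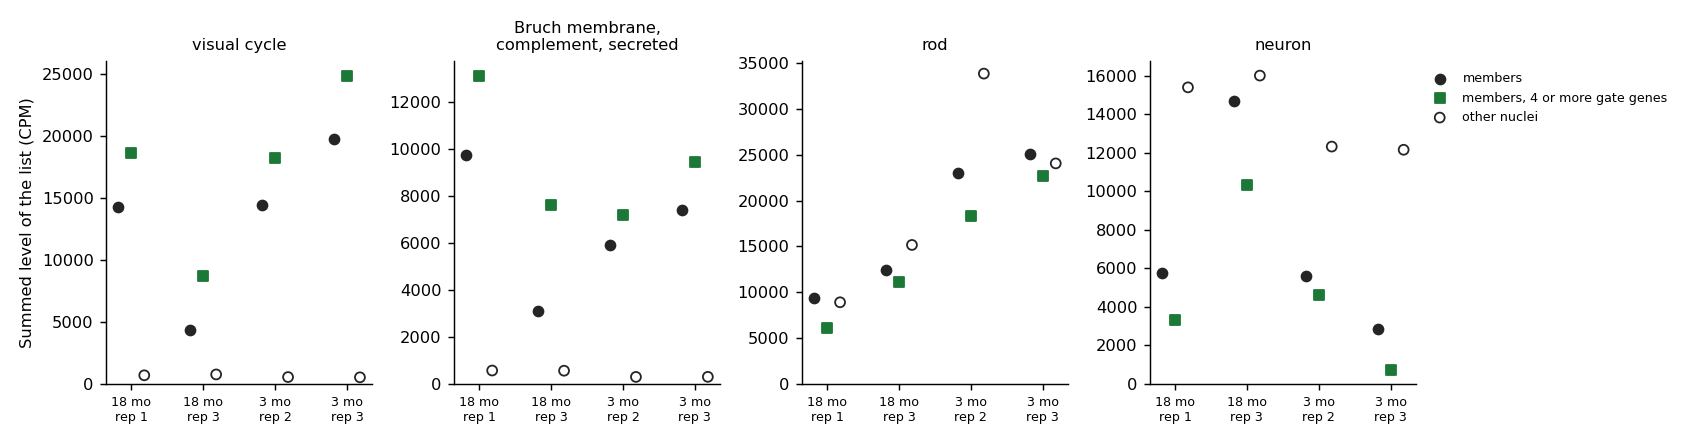
Summed CPM of 4 gene lists by library in all gated nuclei (members), in those with 4 or more gate genes and in all other nuclei, 18-month libraries left of 3-month ones. The visual cycle list, gate genes included, stands at 14326 and 4323 CPM at 18 months and 14429 and 19793 CPM at 3 months in all gated nuclei.

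Summed over the visual cycle list, gate genes included, levels were 14326 and 4323 CPM at 18 months and 14429 and 19793 CPM at 3 months. With 4 or more gate genes they were 18666 and 8691 CPM at 18 months and 18255 and 24880 CPM at 3 months, so the ages overlapped and 18-month replicate 3 was lowest in both. Bruch's membrane and secreted factors summed to 9730 and 3098 CPM at 18 months and 5905 and 7385 CPM at 3 months, again with overlap. Timp3 had a log2 age difference of 1.26 (adjusted p = 0.68, edgeR) and Rgr of -1.04 (SE 0.90, adjusted p = 0.71, edgeR).

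Rod markers were below 0 at 18 months in 14 of 14 tested genes, with a median of -1.08, and their sum, given above, was lower in both 18-month libraries. The other nuclei were also lower in both 18-month libraries, with 8892 and 15151 CPM at 18 months and 33854 and 24052 CPM at 3 months. Their highest library was 3-month replicate 2, and that of the gated nuclei was 3-month replicate 3. The part of that rod RNA in the gated nuclei's values was not tested. The smallest unadjusted p-values were those of Sorcs1, Edil3 and Lrrtm4, higher at 18 months, and Ssu72, Rps28 and Ndufb8, lower, each with an adjusted p of 0.50 (edgeR). Sorcs1, a neuronal sorting receptor, had 367 and 336 CPM at 18 months and 0 and 0 CPM at 3 months, while other nuclei had 647 and 608 CPM at 18 months and 465 and 484 CPM at 3 months. Edil3, a secreted integrin ligand, had 324 and 552 CPM at 18 months and 47.6 and 46.3 CPM at 3 months.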

How the data were processed

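Nuclei of 6 mouse retina libraries (3 at 18 months, 3 at 3 months) were profiled with 10x Chromium 3' v3.1 chemistry, per the labels' protocols. The deposited matrices hold unnormalized UMI counts of genes in barcodes, made by the authors with Cell Ranger 7.1.0 (replicate 1 of both ages) or 7.2.0 (the others), per the file headers. The submitters' processing notes also name mm10 and Seurat, without their role. Reads with or without introns, and strand handling, are not given in the sources used here. No cell type annotation was used here.

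Of 62893 barcodes, 55230 with at least 300 genes and at most 5% mitochondrial UMIs were kept. Scrublet (scanpy 1.11.5) called 0 or 1 doublet per library, so it did not work by its own threshold, and removal of the top scores (0.8% per 1000 nuclei) was an alternative. GABAergic nuclei had 3 or more UMIs of Gad1 plus Gad2. Rods had 5 or more of 8 rod genes, and Müller glia 2 or more Slc1a3 UMIs with 3 or more of 8 glial genes. The gate, the gene lists and the tests were chosen with earlier results of these data known.

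Counts were summed per library over gated nuclei and over the comparison nuclei, and fitted with edgeR 4.0.16 (limma 3.58.1, R 4.3.3; TMM, filterByExpr, quasi-likelihood test, Benjamini-Hochberg over all genes tested). DESeq2 1.42.0, RLE factors, no filter, other gates and leaving out each library were alternatives. The scripts were tested on simulated counts with known changes of 2-fold, 4-fold and 8-fold. By age 0%, 0% and 86.2% of them were found, and against other nuclei 0%, 12.4% and 46.6%. False calls numbered 0, 0 and 8 by age and 0, 4 and 15 against other nuclei. The last 2 stood beside 12.4% of 194 and 46.6% of 193 changed genes found. Against other nuclei, at 4-fold and 8-fold, false calls thus made up more of the calls than the adjusted p limit is meant to allow. Shares were compared by an exact permutation test over libraries. Coordinates are from GENCODE M21, in which 32235 of 32285 identifiers were found, and promoters are from RefSeq (GRCm38.p6), with windows searched for 7 of the 9 gate genes. Of the genes outside the gate, those named are the 25 largest higher and 12 largest lower calls against other nuclei with at least 50 CPM and the same direction in every library, up to 6 of each list by level, and members of counts of 5 or fewer. The genes with the smallest age p-values, Sox10 and Csf1r in single nuclei, and Rbp4, Pmel and others at 0 were named after their values were seen. Over all other nuclei, deviations of same-numbered libraries from their age's mean correlated at 0.803, 0.774 and 0.283 over 12881 genes. Libraries of unlike number were not compared, so that check cannot show whether the replicate numbers pair the samples. Some genes of the lists are counted in them and not reported here by name.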

Additional observations from a re-analysis of the deposited data

Results flagged for a closer look

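Barcodes that the mitochondrial limit removed also held gated profiles. Among 7647 barcodes with over 5% mitochondrial UMIs, 8 passed the marker gate, a share of 0.105%, beside 78 of the 55230 kept nuclei. What brought them here is that they are data no comparison used, with a share above the 0.0392% that a count of 0 would allow, which any count over 3 passes. They were 1 of 18-month replicate 3 and 1, 2 and 4 of 3-month replicates 1, 2 and 3. The 10 pigment epithelium genes outside the gate had 0 UMIs in those of 18-month replicate 3 and 3-month replicate 1, and 13 and 20 UMIs in those of 3-month replicates 2 and 3.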

How the results depend on the processing

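The age difference in share (0.00195 percentage points) was -0.0394 with 5 gate genes, -0.0468 without Otx2 and Ttr, -0.0375 with no exclusion UMI allowed, -0.0140 with a 10% mitochondrial limit, -0.0466 with 4 gate genes, -0.133 within Cell Ranger 7.2.0 and -0.0765 to 0.0824 without a library in turn. With the replicate block it was 0.00195 (exact sign-flip p = 1). No paired analysis was possible for genes because the fitted libraries of the ages share only number 3. Against other nuclei, 303 higher calls became 91 with 20 or more nuclei a library, 50 with no exclusion UMI and 168 to 327 without a library, and 566 lower calls became 178 with RLE, 59 with DESeq2, 4 with 20 nuclei, 3 with no exclusion UMI, 330 against rods, 1133 with 4 gate genes and 98 to 627 without a library. Against Müller glia, 54 higher and 56 lower calls became 157 and 170 with no filter, 0 and 0 with 20 nuclei, 162 and 140 with 5 gate genes, 167 and 142 without Otx2 and Ttr, 3 and 2 with no exclusion UMI, and 20 to 124 and 15 to 91 without a library. By age, 0 calls became 1 with no filter, 1 with a release term, 14 with 4 gate genes and that term, and 0 to 58 without a library. Age fits with 20 nuclei, 5 gate genes, no Otx2 and Ttr or no exclusion UMI were not possible, leaving 1 library an age. The fits with 4 gate genes took in libraries with under 10 nuclei, which those with the other gates left out. Of 1015 repeats of the called values of named genes, 845 kept the call, 170 lost it and 0 reversed. The cause of these changes, the smaller number of libraries in the stricter gates included, was not tested. With 5 gate genes, which also left 1 library an age, the calls against other nuclei were 307 higher and 601 lower. With 21000 to 46350 UMIs a library, a gene at 0 in all 78 nuclei may still be at up to 19.0 CPM.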
